A study of Canis lupus familiaris with 9 samples.

Results

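Leukocytes enter a tissue by following chemokines, small secreted proteins that act on receptors of the cell surface, and by holding on to adhesion molecules of the vessel wall. Many of the genes involved are targets of NF-kB, a family of transcription factors that inhibitor proteins keep in the cytoplasm until a kinase complex marks these inhibitors for destruction. In obesity such genes are studied as signs of inflammation in adipose tissue and muscle. The account below covers 9 of these genes in dog skeletal muscle: the chemokines CXCL14, CXCL12 and CCL2, the receptor-like protein CCRL2, the adhesion molecules VCAM1 and ICAM1, the NF-kB subunits NFKB1 and RELA, and the inhibitor NFKBIA. The genes were taken by symbol, which gave 15 of the 29264 probe sets that carry a single gene symbol. They belong to 9 of the 15115 named genes. Each gene is represented by 1 probe set, chosen by its mean value over the 9 arrays as the brightest of the gene, and the others are given beside it. Because the genes themselves were chosen with earlier results of this comparison known, their differences between groups are a description, and no p-value was adjusted over the 9 genes alone.

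The study randomised intact female beagles, 4 years old, to unrestricted feeding (ad libitum, 5 dogs, animals 2, 5, 6, 7 and 8) or to an amount that held body weight at its starting value (control, 4 dogs, animals 1, 3, 4 and 9). Both groups ate the same commercial food, Purina Pro Plan Performance Formula, and muscle was taken at 24 weeks after an overnight fast. The labels do not say which muscle was sampled. RNA of each dog went on 1 Affymetrix canine array, so every dog is a separate replicate.

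The arrays gave values made with GCRMA, a method that corrects each probe for background, and the values were read as log2, so that a difference of 1 is a doubling. Pairs of arrays correlated at r = 0.976 to 0.994, and the number of arrays limits the precision. Markers of skeletal muscle fibres identified the tissue: 9 of 10 were on the array, all 9 were tested, and their mean value lay between 15.0 and 15.6 in every dog. A probe set was tested when it exceeded log2 4 on at least 4 arrays, which 18394 did. Of the 15 probe sets described here, 12 were tested, and ICAM1 was the gene with none among them. RNA quality, read as the 3′ minus 5′ value of the GAPDH control probe sets, averaged 2.21 ± 0.0676 (SD, n = 5) in the ad libitum group against 2.09 ± 0.107 (SD, n = 4) in the controls, with a two-sided exact permutation p of 0.0794. For the ACTB control probe sets it was 4.94 ± 0.251 and 4.76 ± 0.475 (exact permutation p = 0.492).

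The question was whether these genes differ between muscle of dogs fed without restriction and dogs kept at constant weight. CXCL14, VCAM1 and CCL2 had the largest positive differences, at 1.95, 1.34 and 1.11 on the log2 scale, and CCRL2 had the largest negative one, at -1.38. NFKBIA differed by 0.51, ICAM1 by 0.27 and CXCL12 by 0.050, while NFKB1 and RELA differed by -0.20 and -0.085. None passed the test. With limma and Benjamini-Hochberg adjustment over all tested probe sets, the adjusted p of the 8 tested genes ran from 0.796 to 0.984, and 0 of the 18394 probe sets (0%) passed an adjusted p of 0.05.

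Without adjustment, 2 of the 8 tested genes, VCAM1 and CCRL2, had a limma p under 0.05, as had 1088 of all probe sets tested (5.91%). VCAM1 was the only 1 of the 8 with such a p and a higher mean, against 3.71% of all probe sets. CCRL2 was the only 1 with such a p and a lower mean, against 2.21%. In 0 of the 9 genes did the groups separate completely, which 1.44% of all probe sets did, 0.739% with the ad libitum group entirely above the controls and 0.696% entirely below them. The mean was higher in ad libitum dogs for 6 of the 9 genes and for 48.4% of all probe sets. The median difference was 0.27 over the 9 genes and -0.0082 over all probe sets. Since the genes were chosen with this comparison known, nothing is read from these shares.

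**Figure D1:**
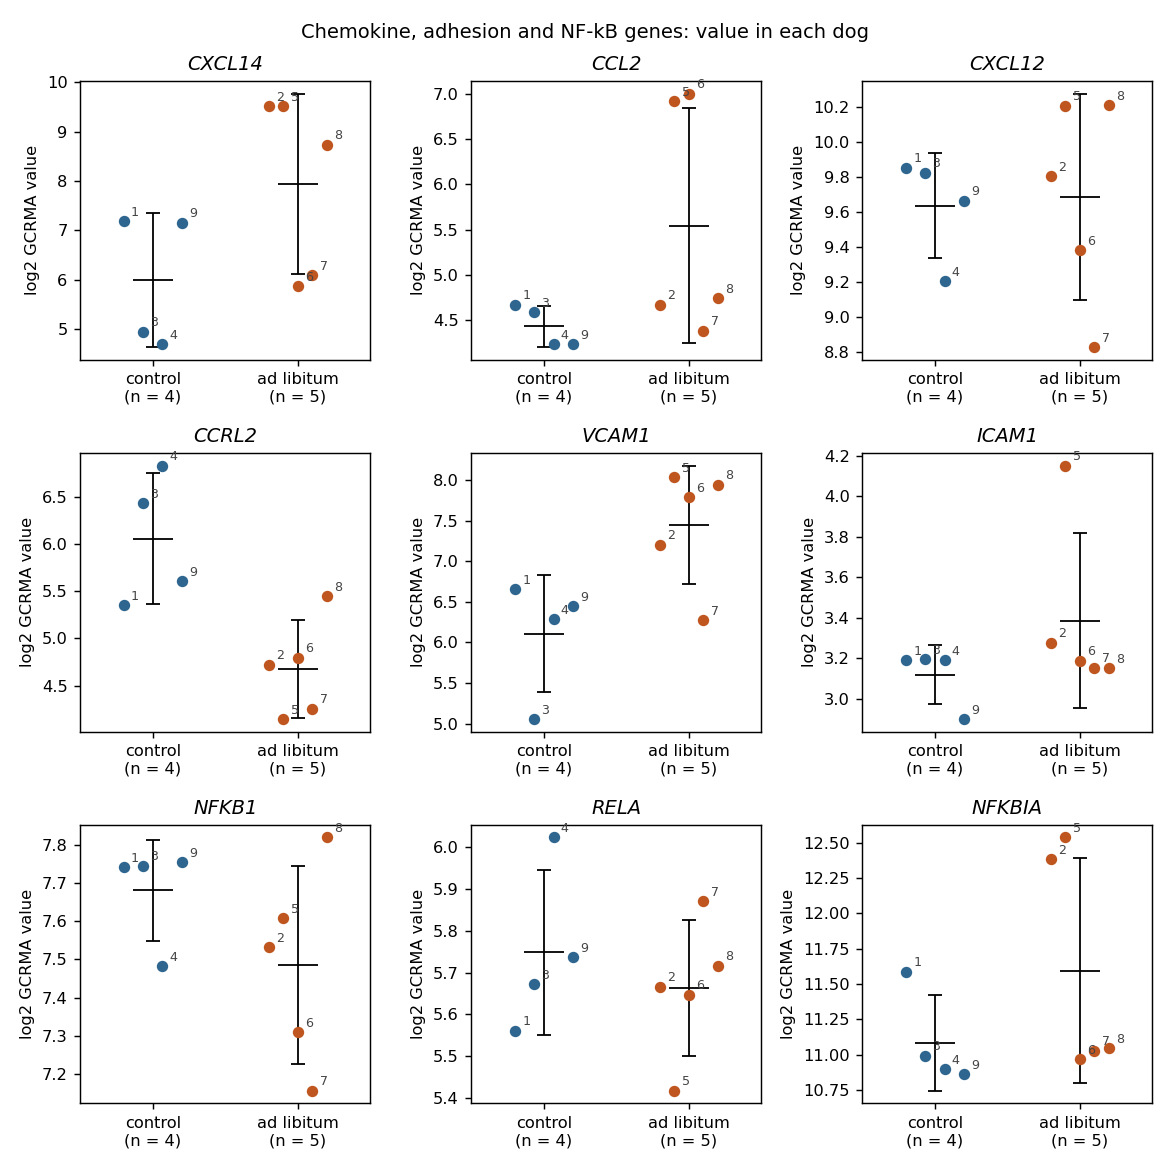
Log2 GCRMA value of the 9 genes in each dog, with control dogs (n = 4) in blue on the left, ad libitum dogs (n = 5) in orange on the right, animal numbers beside the points, and the mean ± SD in black; each panel has its own axis. VCAM1 lay above all control dogs in 4 of 5 ad libitum dogs, and CCRL2 lay below all control dogs in 4 of 5.

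CXCL14, a chemokine made by stromal and epithelial cells in healthy tissue, stood at 9.51, 9.52, 5.87, 6.09 and 8.74 in ad libitum dogs 2, 5, 6, 7 and 8 and at 7.18, 4.94, 4.69 and 7.15 in control dogs 1, 3, 4 and 9. Both groups were split: ad libitum dogs 2, 5 and 8 lay above every control dog, while dogs 6 and 7 lay between the controls. The means were 7.94 ± 1.83 (SD, n = 5) and 5.99 ± 1.36 (SD, n = 4), a 3.87-fold ratio with a log2 difference of 1.95 (SE 0.96) and a 95% confidence interval from -0.20 to 4.11 (limma, adjusted p = 0.796). A second probe set of CXCL14 gave the same order of high and low dogs, with 9.18, 9.50 and 8.44 in ad libitum dogs 2, 5 and 8, 5.11 and 6.04 in dogs 6 and 7, and 7.04, 4.95, 4.01 and 6.83 in the control dogs. Its difference was likewise 1.95 (SE 1.03).

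CCL2, which draws monocytes through the receptor CCR2, was high in 2 dogs. Ad libitum dogs 5 and 6 had 6.91 and 7.00, and the remaining ad libitum dogs 2, 7 and 8 had 4.67, 4.38 and 4.74. Control dogs 1, 3, 4 and 9 had 4.67, 4.59, 4.24 and 4.24, so the other three ad libitum dogs overlapped the control range or lay just above it. The means were 5.54 ± 1.30 (SD, n = 5) and 4.43 ± 0.23 (SD, n = 4), a log2 difference of 1.11 (SE 0.58) with a 95% confidence interval from -0.20 to 2.42 (limma, adjusted p = 0.796). Without ad libitum dog 6 the difference was 0.75 and without dog 5 it was 0.77. CCL2 had a single probe set on the array. In every dog but 5 and 6 it was close to the log2 4 of the filter, where GCRMA values are uncertain in size.

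CXCL12, the ligand of the receptors CXCR4 and ACKR3 and a chemokine that retains progenitor cells in their niches, stood at 9.80, 10.21, 9.38, 8.83 and 10.21 in ad libitum dogs 2, 5, 6, 7 and 8. Control dogs 1, 3, 4 and 9 had 9.85, 9.82, 9.20 and 9.66. The control values lay inside the range of the ad libitum values, with dogs 5 and 8 above and dog 7 below all controls. The log2 difference was 0.050 (SE 0.30), with a 95% confidence interval from -0.61 to 0.71 (limma, adjusted p = 0.984). It turned negative without ad libitum dog 5 or 8 or control dog 4, at -0.081, -0.081 and -0.094. The second probe set of CXCL12 had -0.079 (SE 0.20), and there too ad libitum dogs 5 and 8 were highest and dog 7 lowest, at 8.47, 8.23 and 7.36, while all 4 control dogs had 8.10.

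CCRL2 encodes an atypical receptor that binds the attractant chemerin without signalling and offers it to cells bearing the chemerin receptor CMKLR1. It stood at 4.72, 4.15, 4.80, 4.25 and 5.45 in ad libitum dogs 2, 5, 6, 7 and 8 and at 5.35, 6.43, 6.83 and 5.60 in control dogs 1, 3, 4 and 9. All 5 ad libitum dogs lay below the control mean, and only dog 8 overlapped the control range, above control dog 1. The means were 4.67 ± 0.52 (SD, n = 5) and 6.05 ± 0.69 (SD, n = 4), or 2.60-fold higher in control dogs. The log2 difference of CCRL2 was -1.38 (SE 0.36), with a 95% confidence interval of this single gene from -2.19 to -0.57. Its limma p was 0.00365 before and 0.796 after adjustment. Ad libitum dogs 2, 5, 6 and 7 held CCRL2 close to the log2 4 of the filter, where GCRMA values are uncertain in size. The size of the CCRL2 difference is therefore uncertain, and no other probe set measured this gene.

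**Figure D2:**
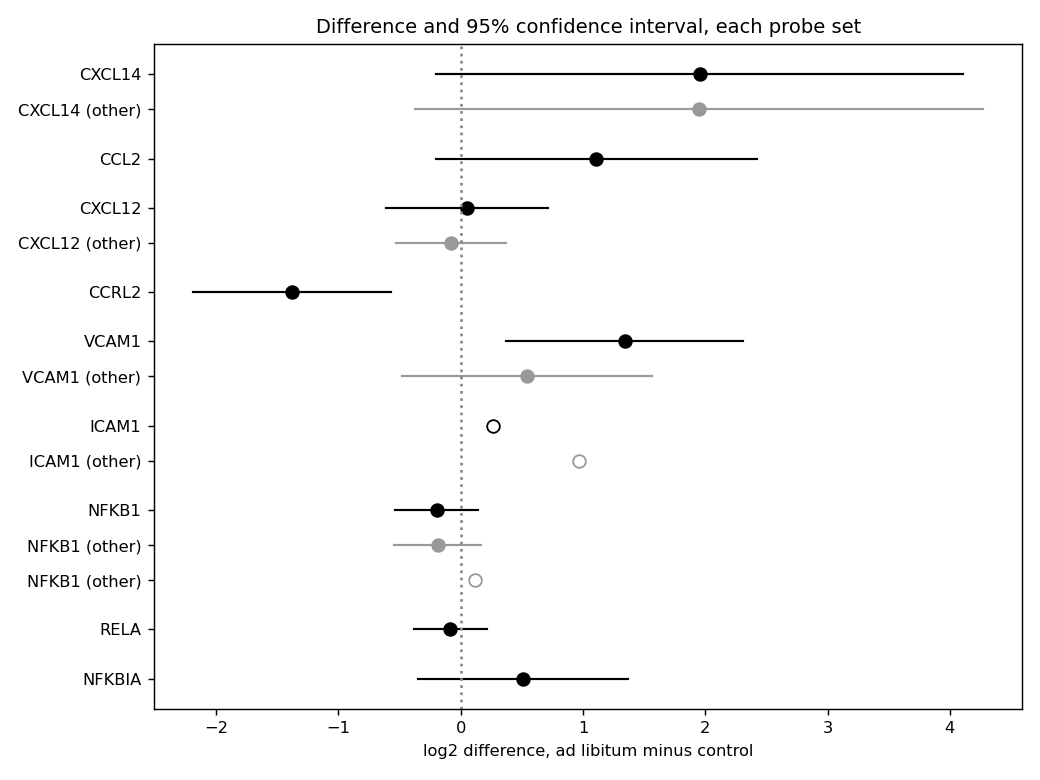
Log2 difference between group means, ad libitum (n = 5) minus control (n = 4), for each of the 15 probe sets; black marks the representative probe set of a gene and grey its others, lines are 95% confidence intervals of the limma fit for single probe sets, and open circles without a line were not tested. The intervals of the representative probe sets of VCAM1 and CCRL2 leave out 0, before any adjustment for the number of probe sets.

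VCAM1 binds the integrin of ITGA4 and ITGB1 on leukocytes, is displayed by activated endothelium, and is also found on muscle stem cells. Its values were 7.20, 8.03, 7.79, 6.28 and 7.94 in ad libitum dogs 2, 5, 6, 7 and 8, against 6.65, 5.06, 6.28 and 6.44 in control dogs 1, 3, 4 and 9. Only ad libitum dog 7 lay within the control range. The means were 7.45 ± 0.73 (SD, n = 5) and 6.11 ± 0.72 (SD, n = 4), a 2.53-fold ratio with a log2 difference of 1.34 (SE 0.43) and a 95% confidence interval from 0.37 to 2.31. The limma p of VCAM1 was 0.0119 before and 0.796 after adjustment. Leaving out 1 dog moved the difference between 0.99 (control dog 3 left out) and 1.63 (ad libitum dog 7 left out).

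The second probe set of VCAM1 was dimmer and showed a smaller difference, 0.54 (SE 0.45; limma, adjusted p = 0.861). Ad libitum dogs 5, 6 and 8 had 4.55, 5.64 and 4.93 there, above all control dogs at 3.57 to 4.16, while dog 2 had 3.90 and dog 7 had 3.04, below all control dogs. Both probe sets thus placed dogs 5, 6 and 8 highest and put dog 7 lowest within the ad libitum group. They disagreed on dog 2, which lay above all control dogs on the first probe set and inside their range on the second. The second probe set exceeded log2 4 on only 4 arrays. Dog 2, at 3.90 there, lay where GCRMA values are uncertain in size.

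ICAM1, which binds the leukocyte integrins built on ITGB2, was low in most dogs. Its representative probe set had 3.28, 4.15, 3.19, 3.15 and 3.15 in ad libitum dogs 2, 5, 6, 7 and 8 and 3.19, 3.20, 3.19 and 2.90 in control dogs 1, 3, 4 and 9. Only ad libitum dog 5 exceeded log2 4. The second probe set had 3.68 and 5.28 in ad libitum dogs 2 and 5 and 2.08 to 2.14 in every other dog of either group. Dog 5 was therefore highest and dog 2 next on both probe sets, and neither passed the filter, so no test is given for ICAM1. The difference of 0.27 became 0.073 without dog 5.

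NFKB1 encodes the p105 precursor of the p50 subunit, and RELA the p65 subunit that carries the activation domain of the common NF-kB dimer. NFKB1 stood at 7.53, 7.61, 7.31, 7.16 and 7.82 in ad libitum dogs 2, 5, 6, 7 and 8 and at 7.74, 7.75, 7.48 and 7.76 in control dogs 1, 3, 4 and 9. Ad libitum dogs 6 and 7 lay below all controls and dog 8 above them. The log2 difference of NFKB1 was -0.20 (SE 0.15), with a 95% confidence interval from -0.53 to 0.14 (limma, adjusted p = 0.839). With 1 dog left out it ran from -0.28, without ad libitum dog 8, to -0.11, without ad libitum dog 7. A second probe set gave -0.19 (SE 0.16), and the remaining one was below log2 4 on all 9 arrays.

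RELA stood at 5.67, 5.42, 5.65, 5.87 and 5.72 in ad libitum dogs 2, 5, 6, 7 and 8 and at 5.56, 5.67, 6.02 and 5.74 in control dogs 1, 3, 4 and 9. Apart from dog 5, which was lowest, the ad libitum dogs lay inside the control range. The log2 difference was -0.085 (SE 0.13), with a 95% confidence interval from -0.38 to 0.22 (limma, adjusted p = 0.929), and it was 0.0071 without control dog 4. The group SDs of RELA were 0.16 in ad libitum and 0.20 in control dogs, larger than the difference between the group means.

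NFKBIA encodes IkB-alpha, the inhibitor that holds NF-kB dimers in the cytoplasm and is itself transcribed under NF-kB. Its values were 12.39, 12.54, 10.97, 11.03 and 11.04 in ad libitum dogs 2, 5, 6, 7 and 8 and 11.59, 10.99, 10.90 and 10.86 in control dogs 1, 3, 4 and 9. Ad libitum dogs 2 and 5 lay above every control dog, and dogs 6, 7 and 8 sat among the controls. The means were 11.59 ± 0.80 (SD, n = 5) and 11.08 ± 0.34 (SD, n = 4), a log2 difference of 0.51 (SE 0.38) with a 95% confidence interval from -0.35 to 1.37 (limma, adjusted p = 0.836). Without dog 5 the difference of NFKBIA was 0.27, and without dog 2 it was 0.31.

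**Figure D3:**
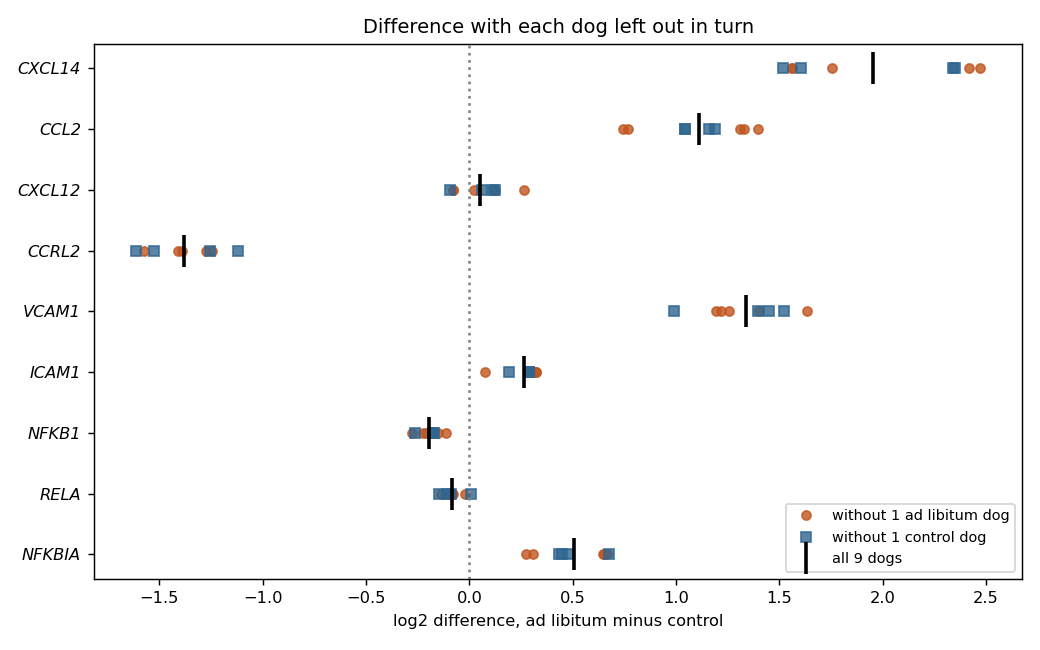
Log2 difference, ad libitum minus control, with all 9 dogs (black bar) and with each dog left out in turn (orange circles for an ad libitum dog, blue squares for a control dog). The differences of CXCL14, CCL2, VCAM1, ICAM1 and NFKBIA stayed above 0 and those of CCRL2 and NFKB1 below 0 in all 9 cases, while those of CXCL12 and RELA fell on both sides of 0.

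The dogs that carried the high values were not the same for every gene. Ad libitum dog 5 ranked highest of the 9 dogs for 4 genes (VCAM1, ICAM1, CXCL14 and NFKBIA) and lowest for 2 (CCRL2 and RELA). Dog 2 came next to it for CXCL14, ICAM1 and NFKBIA and dog 8 for VCAM1, while dog 6 was highest for CCL2 and dog 8 for CXCL12 and NFKB1. Ad libitum dog 7 ranked lowest for CXCL12 and NFKB1 and eighth for VCAM1 and CCRL2. Without dog 7 the differences of VCAM1, CXCL14 and CCL2 were 1.63, 2.42 and 1.40, and the adjusted p of VCAM1, CXCL14, CCL2 and CCRL2 were then 0.148, 0.371, 0.388 and 0.255 (limma).

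**Figure D4:**
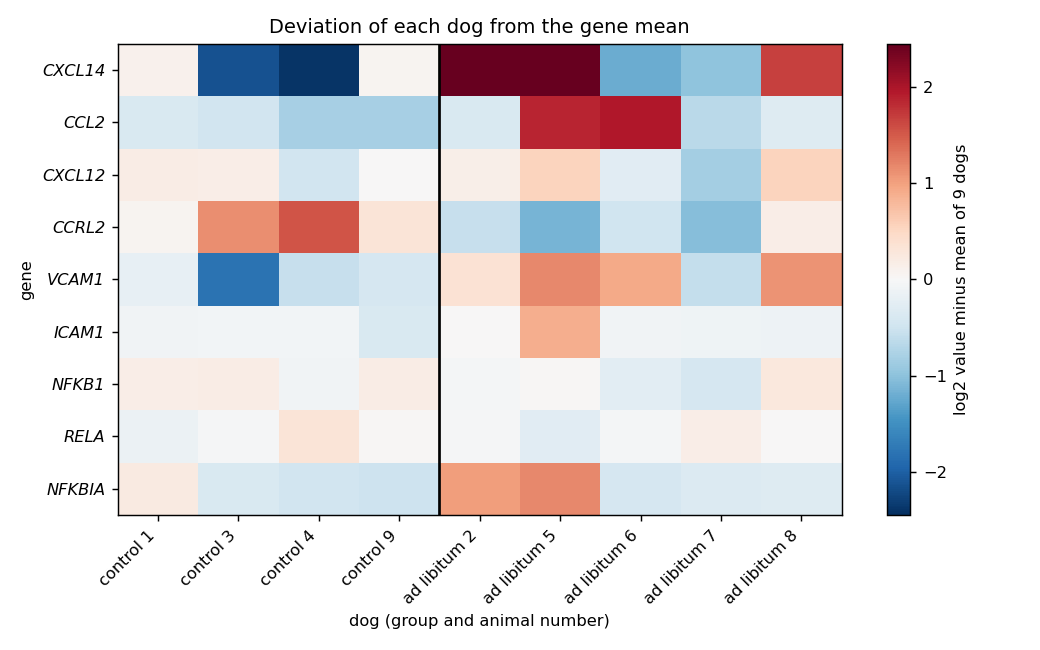
Log2 value of each gene in each dog minus the mean of that gene over the 9 dogs, with control dogs left and ad libitum dogs right of the black line. CXCL14 is high in ad libitum dogs 2, 5 and 8, CCL2 in dogs 5 and 6, and NFKBIA in dogs 2 and 5.

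Over the 9 dogs, the 36 pairs among these genes were compared by correlation, with exact permutation p-values adjusted over the pairs. CXCL12 and NFKB1 had r = 0.82 (exact permutation p = 0.00758, adjusted p = 0.137) and rho = 0.75 (exact permutation p = 0.0255, adjusted p = 0.224), and r = 0.61 without ad libitum dog 7 and control dog 4. With group means subtracted r was 0.95 (exact permutation p = 0.00347, adjusted p = 0.125). CXCL14 and NFKBIA had r = 0.77 (exact permutation p = 0.0151, adjusted p = 0.182) and rho = 0.80 (exact permutation p = 0.0138, adjusted p = 0.166), and r = 0.67 without ad libitum dog 5 and control dog 4. Other pairs were negative. CCL2 and RELA had r = -0.63 (exact permutation p = 0.0577, adjusted p = 0.237) and rho = -0.80 (exact permutation p = 0.0122, adjusted p = 0.166). For CXCL12 and RELA r was -0.72 (exact permutation p = 0.0280, adjusted p = 0.237) and rho -0.60 (exact permutation p = 0.0968, adjusted p = 0.258). None of these pairs passed the adjustment.

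One pair did, ICAM1 with NFKBIA, at r = 0.76 (exact permutation p = 0.00138, adjusted p = 0.0495), but not by rank (rho = 0.58, exact permutation p = 0.108, adjusted p = 0.258). Without ad libitum dog 5 and control dog 9 this pair had r = 0.84 (exact permutation p = 0.0905, adjusted p = 0.729). ICAM1 was below log2 4 in all of the dogs that remained. Each pair was likewise taken without the 2 dogs farthest from the median of its own first gene, and 0 of the 36 pairs then passed.

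The binding partners of these genes were looked up whatever their values. ACKR3, the second receptor of CXCL12, averaged 10.42 ± 0.41 (SD, n = 5) with unrestricted feeding and 10.33 ± 0.32 (SD, n = 4) in the controls. Its log2 difference was 0.088 (SE 0.23; limma, adjusted p = 0.955). RARRES2, which encodes chemerin, the ligand that CCRL2 binds, stood at 7.67, 7.98, 7.45, 5.13 and 6.99 in ad libitum dogs 2, 5, 6, 7 and 8 and at 6.45, 5.48, 6.59 and 6.08 in control dogs 1, 3, 4 and 9. Ad libitum dog 7 lay below all controls and the other four ad libitum dogs above them. The difference of RARRES2 was 0.89 (SE 0.54; limma, adjusted p = 0.799), opposite in sign to that of CCRL2.

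ITGB1, a chain of the VCAM1 receptor, differed by 0.21 (SE 0.25; limma, adjusted p = 0.899), and by -0.19 on another probe set. The partner chain ITGA4, the chains ITGAL and ITGAM of the ICAM1 receptors, the CCL2 receptor CCR2 and the chemerin receptor CMKLR1 were at or below log2 4 on all 9 arrays. ITGB2, the common chain of the ICAM1 receptors, exceeded log2 4 in ad libitum dogs 5 and 6 alone, at 6.40 and 4.27, with 3.84 to 3.89 in every other dog. Dog 5 was thus highest for both ICAM1 and ITGB2. CXCR4 and ACKR1 were not analysed here.

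Regulators of NF-kB differed in both directions, and 0 of those tested passed the limma test. Of the kinase complex that marks IkB-alpha, the catalytic subunits IKBKB and CHUK differed by -0.061 (SE 0.14) and -0.045 (SE 0.12) and the regulatory subunit IKBKG by 0.066 (SE 0.22). The other family members NFKB2 and RELB differed by -0.21 and 0.21, and the inhibitor NFKBIB by 0.068, while REL, NFKBIE and TNFAIP3, an NF-kB-induced inhibitor of the pathway, were below log2 4 on all 9 arrays. CHUK in all dogs, and RELB outside ad libitum dogs 2 and 7, lay close to log2 4, where values are uncertain in size. Of 37 genes listed for the NF-kB pathway, 35 were on the array and 19 were tested. Among these, 9 had a higher and 10 a lower mean in ad libitum dogs, and 0 passed the limma test, as over all probe sets. An unadjusted limma p under 0.05 was found for 0 of the 19, against 5.91% of all probe sets. With so few genes, nothing is read from this count. The median difference of the 19 genes was -0.021. The ends of the range, named after their values were seen, were CYLD and TNFRSF1A. CYLD, a deubiquitinase that restrains the pathway, differed by -0.50 (SE 0.62), and TNFRSF1A, the main TNF receptor, by 0.66 (SE 0.32).

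Most other chemokines and their receptors had low values. Of 45 genes listed, 33 were on the array and 25 of these stayed at or below log2 4 on all 9 arrays. The 3 tested genes were ACKR3, RARRES2 and CCL21, a ligand that guides lymphocytes and dendritic cells to lymph nodes, with CCL21 at 1.08 (SE 0.62; limma, adjusted p = 0.796). Of 30 genes listed for leukocyte and endothelial adhesion, 16 were tested. Of these, 12 had a higher and 4 a lower mean in ad libitum dogs, and 0 passed the limma test, as over all probe sets. An unadjusted limma p under 0.05 was found for 0 of the 16, against 5.91% of all probe sets. Nothing is read from this count either. The median difference of the 16 genes was 0.21. It ran from -0.26 for ESAM, an endothelial junction protein, to 0.72 for MCAM, a cell adhesion molecule of vessels. Both were named after their values were seen. PECAM1 and CDH5, adhesion molecules of endothelial junctions, differed by 0.32 (SE 0.24) and 0.19 (SE 0.20).

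Markers of several other cell types had higher means in ad libitum dogs, though 0 of the marker genes tested passed the limma test. In a bulk sample more cells of a type and more RNA per cell cannot be told apart. All 5 tested of 11 macrophage markers had a higher mean in ad libitum dogs, and the mean over these markers ranged from 4.71 to 8.46 in ad libitum and from 4.56 to 5.65 in control dogs. Ad libitum dogs 5 and 6, the dogs high in CCL2, had the highest macrophage values, 8.46 and 7.40, and dog 7 had 4.71. Dogs 2 and 8, at 6.38 and 5.98, also lay above all control dogs, though their CCL2 values were 4.67 and 4.74. The marker CD14 was at 7.99 and 6.19 in ad libitum dogs 5 and 6 and at 4.62 to 4.63 in every other dog of either group. Without adjustment, 3 of the 5 (CD163, LAPTM5 and CTSS) had a limma p under 0.05 and a higher mean, against 3.71% of all probe sets. A marker could pass the filter through ad libitum dogs alone, so nothing is read from this share. The macrophage markers CD68, CSF1R, AIF1 and TYROBP did not pass the filter, and FCER1G and MARCO were at or below log2 4 on all arrays. The part of these cells in the results was not tested.

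The 10 fibroblast and fibro-adipogenic progenitor markers all had a higher mean in ad libitum dogs, with list means of 7.98 to 11.6 against 7.80 to 9.06. An unadjusted limma p under 0.05 was found for 5 of the 10 (COL1A1, COL1A2, COL3A1, THY1 and S100A4). Of all probe sets, 3.71% had such a p and a higher mean. For adipocytes 9 of 10 were higher, with 8.63 to 10.9 against 7.64 to 9.84. Here 3 of the 10 (LEP, PCK1 and LIPE) had such a p and a higher mean, against the same 3.71%. LEP, which encodes leptin, was higher in every ad libitum dog than in any control dog, as were 0.739% of all probe sets. For endothelium 6 of 10 were higher, with 7.65 to 8.23 against 7.84 to 8.07. One endothelial marker, the VEGF receptor FLT1, had an unadjusted limma p under 0.05 and a lower mean (2.21% of all probe sets), and its ad libitum values lay entirely below the controls (0.696%). The endothelial means of ad libitum dogs 2 and 8 lay above those of all control dogs, and those of the remaining ad libitum dogs lay below them. The lists were chosen with earlier results of these data known, so nothing is read from these shares. The part of these cell types in the results was not tested either.

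Of the other lists, 4 of 7 smooth muscle and pericyte markers, all 3 nerve and Schwann cell markers, both neutrophil markers and 1 of 3 satellite cell markers tested had a higher mean in ad libitum dogs, and for red blood cells and platelets 0 of 3 had. The neutrophil markers S100A8 and S100A9 varied widely in both groups, with means from 5.14 to 9.89 in ad libitum and from 4.07 to 9.18 in control dogs. PAX7, which defines satellite cells, was below log2 4 on all arrays, as were the T cell markers CD3E and CD3D and the B cell marker MS4A1. The single lymphocyte marker tested, JCHAIN, differed by -0.053. Of the muscle fibre markers 4 of 9 were higher.

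**Figure D5:**
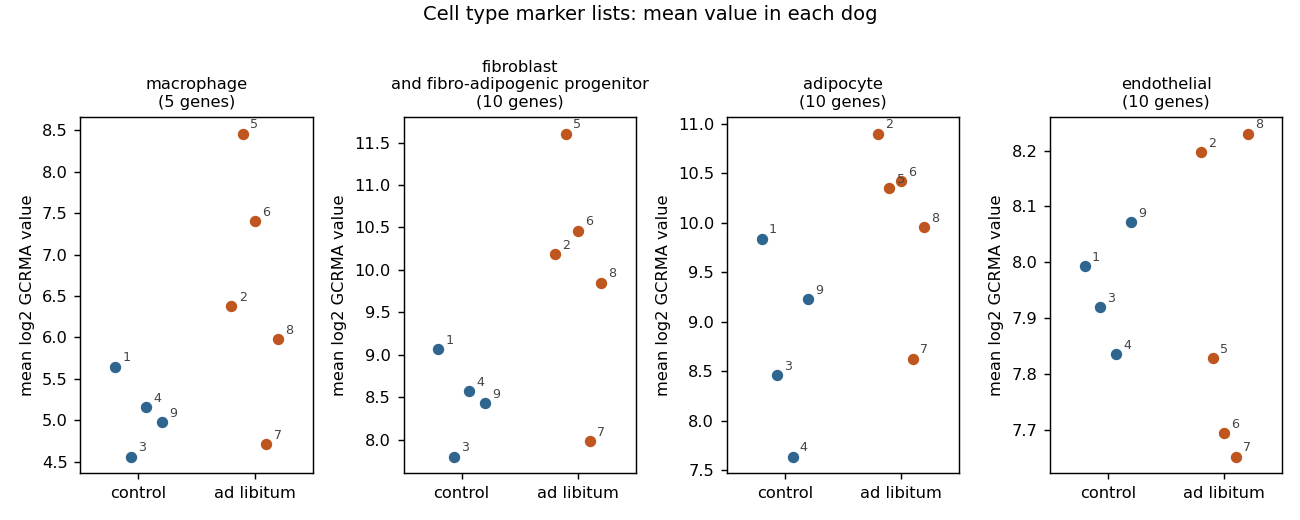
Mean log2 GCRMA value per dog over the tested markers of macrophages (5 genes), fibroblasts and fibro-adipogenic progenitors (10), adipocytes (10) and endothelium (10), with control dogs in blue, ad libitum dogs in orange and animal numbers beside the points; each panel has its own axis. Ad libitum dog 7 lies among the control dogs in the first 3 panels, and dog 5 is highest for macrophages and fibroblasts.

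The genes with the most similar profile over the 9 arrays were sought among 7534 genes, each by its brightest tested probe set, and are given by Pearson's r without a p-value because they were picked for it. VCAM1 was most like THBS3, a thrombospondin (r = 0.97, rho = 0.93), and LIMA1, an actin-binding protein (r = 0.96, rho = 0.97). CXCL14 was most like MMD (r = 0.96, rho = 0.92) and the ephrin EFNA1 (r = 0.96, rho = 0.96). CCRL2 was most like TLN2, talin 2 (r = 0.93, rho = 0.95). Without the 2 dogs farthest from the median VCAM1 had r of 0.95 and 0.92, CXCL14 of 0.94 and 0.95, and CCRL2 of 0.93.

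CCL2 was most like CALHM2 (r = 0.96, rho = 0.93) and SMPDL3A (r = 0.95, rho = 0.81), and without ad libitum dogs 5 and 6 these r were 0.63 and 0.66. ICAM1 was most like TNFRSF14 (r = 0.99, rho = 0.67) and CORO1A (r = 0.98, rho = 0.55), and without ad libitum dog 5 and control dog 9 they were 0.60 and 0.093. NFKBIA was most like ZYX, zyxin (r = 0.96, rho = 0.92), and TRIP6 (r = 0.96, rho = 0.75), with 0.89 and 0.64 once ad libitum dogs 2 and 5 were left out. NFKB1 was most like TRIB2 (r = 0.94, rho = 0.98) and CLK2 (r = 0.91, rho = 0.93), CXCL12 like TERF2IP (r = 0.94, rho = 0.90) and EVI5 (r = 0.92, rho = 0.93), and RELA like PTCD2 (r = 0.98, rho = 0.95) and PRUNE1 (r = 0.95, rho = 0.82).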

How the data were processed

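Muscle RNA of 9 beagles was measured on 1 Affymetrix canine array each. Per the submitters' processing notes, the authors made the deposited log2 values with GCRMA, whose version is not given there. The log base was read from their range, 0.652 to 16.6. GCRMA normalizes arrays by quantiles, so a shift of most transcripts in a group would not appear, and low values are uncertain in size.

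Of 43035 probe sets, 111 controls were left out and 18394 above log2 4 on at least 4 arrays were tested with limma 3.58.1 in R 4.3.3 (lmFit, eBayes, two-sided, no covariate, 7 residual degrees of freedom), adjusted by Benjamini-Hochberg at 0.05. Symbols were read from the 2016 platform annotation, which gave 29264 probe sets a single symbol, 439 several and 13332 none. Through the gene table of UU_Cfam_GSD_1.0, 27690 matched and 0 symbols changed. No build belongs to these values, so no coordinates are given. The labels name no batch. The limma step was tested on simulated data.

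The genes and lists were chosen with earlier results of these data known. Genes were named by 3 rules: all 9 genes, their binding partners and direct regulators, and the 2 genes most correlated with each, except that the second gene of CCRL2 is not reported here. ESAM, MCAM, CYLD, TNFRSF1A, CCL21, PECAM1 and CDH5 and the marker genes were named in addition. The alternatives were other filters, a floor, cyclic loess, median centring, eBayes with a trend or robust estimation, array weights, other probe sets and leaving out each dog.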

Additional observations from a re-analysis of the deposited data

Results flagged for a closer look

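Within each group, the highest or lowest dog was compared with the others by Dixon's criterion over 48 sets of values (15 probe sets of the 9 genes and 9 of their partners, in both groups). It marked 9 of them. Chance marks about 1 in 20 sets of normally spread values, but several marked sets held almost equal values near background. The rates can therefore not be compared. ICAM1 stood apart in ad libitum dog 5 at 4.15, against 3.15 to 3.28 in the other ad libitum dogs, and in control dog 9 at 2.90, against 3.19 to 3.20, with values near background on both sides. NFKB1 was lowest in control dog 4 at 7.48, against 7.74 to 7.76 in the other controls. A probe set of NFKB1 that was not tested had 2.51 in ad libitum dog 6, against 1.88 to 1.89. ITGB1 was lowest in control dog 3 at 7.06, against 7.72 to 7.85. CHUK was lowest in ad libitum dog 5 at 3.69, against 4.12 to 4.19, and in control dog 1 at 4.00, against 4.12 to 4.13. IKBKG was lowest in ad libitum dog 8 at 4.48, against 4.90 to 5.01, and NFKBIB in control dog 1 at 8.64, against 8.82 to 8.84.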

How the results depend on the processing

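No alternative gave any of the tested genes an adjusted p under 0.05 (limma). VCAM1, CXCL14, CCL2, NFKBIA and CCRL2 kept their direction under every alternative run, with adjusted p between 0.148 and 1.00. The difference of CXCL12 was -0.079 on its other probe set and -0.015 as the mean of both, and ran from -0.094 to 0.26 with a dog left out. That of RELA ran from -0.15 to 0.0071, and NFKB1 had 0.12 on its dimmest probe set and ran from -0.28 to -0.11 with a dog left out. ICAM1 differed by 0.96 on its other probe set and by 0.61 as the mean of both. Over all probe sets, the number called was 1 (CISH) with values under log2 4 raised to 4, and 0 to 1 with a dog left out, the 1 being LOC489640 without ad libitum dog 8. The number with an unadjusted p under 0.05 was 1865 with array weights and ran from 695, without ad libitum dog 5, to 2151, without ad libitum dog 7. No correlated pair passed without the 2 dogs farthest from the median of its first gene (0 of 36) or with group means subtracted (0 of 36). The cause of these changes was not tested. At the filter of log2 6, CCL2, CCRL2 and RELA were not tested. No paired analysis was possible because the animal numbers are not shared between the groups. Low signal limits ICAM1, the second probe set of VCAM1, CCL2 in all dogs but 5 and 6, and CCRL2 in ad libitum dogs. It also limits CHUK, RELB and most chemokine receptors.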
